A study of Mus musculus with 3 samples.

Results

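Tetraspanins are small membrane proteins that cross the lipid bilayer several times, expose a large loop with conserved cysteines on the cell surface, and gather integrins, immunoglobulin-type proteins and proteases into patches of the plasma membrane. CD9, CD63 and CD81 are also common cargo of the vesicles that cells release, and CD9 and CD151 are known for their part in cell adhesion and migration. Of 10 genes of this family that were chosen (Cd9, Cd53, Cd63, Cd81, Cd82, Cd151, Tspan3, Tspan4, Tspan6 and Tspan9), 9 were found by matching the gene symbol of each probe, or its older name, to the list. Each of the 9 had 1 probe, out of 16390 named genes in all, and Tspan6 was not analysed here because none of the named probes carried its symbol. The genes were chosen by family, with earlier results of these arrays known, and Cd9 was selected on its intensity in the 3 lines, so these values are given as a description.

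Total RNA from 3 mouse stromal lines was read on 1 one-colour array each. OP9 was derived from newborn calvaria; the mice were B6C3Fe-a/a-Csf1op/Csf1op and lack functional macrophage colony-stimulating factor, and the line is used to support blood cells in culture. OP9-DL cells carried GFP and the Notch ligand Delta-like 1, OP9-GFP cells carried GFP without the ligand, and OP9 cells carried neither; all 3 share the Csf1op background, the same serum-containing medium and no other treatment. By its title the series concerns Delta-like 1 in the adhesion of mast cells. What drives the transgenes, and whether a line is 1 clone, was not given in the sources used here.

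The authors scaled the intensities so that the median probe of each array reads 20, and 15581 of 23473 probes had a value on all 3 arrays and a mean above the brightness limit of 6.13. Dll1 read 333.3 in OP9-DL cells, 20.5 in OP9-GFP cells and 14 in OP9 cells, so it was high in the line labelled with the ligand. Of 11 stromal markers with a probe 10 were bright enough to be compared, of which 2 were lower in OP9-DL than in OP9-GFP cells (Col3a1 by 4.78-fold and Cxcl12 by 2.21-fold), as were 2.72% of all compared probes. Against OP9, OP9-DL had 1 marker higher (Col1a1 by 2.07-fold) and 2 lower (Col3a1 by 3.37-fold and Pdgfra by 6.30-fold). Over all compared probes 4.31% were higher and 6.91% lower there. In OP9-GFP against OP9, Col1a1 was also higher, by 2.65-fold, and Pdgfra was also lower, by 4.82-fold. Of all compared probes 4.86% were higher and 6.75% lower in that comparison. Col1a2 and Vim stayed within 2-fold in every comparison, and Thy1 was below the limit (3.0 in OP9-DL, 1.7 in OP9-GFP and 1.1 in OP9 cells). With 1 array per line no difference below has a replicate check, an error or a test, and a gene is counted as higher or lower at 2-fold or more. What Delta-like 1 does cannot be told apart from anything else that differs between the cultures.

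The promoters of the members that passed 2-fold in any comparison are shown because their genes differ in opposite directions: Cd9 and Cd82 were lower and Tspan9 higher in OP9-DL than in OP9 cells. Each sequence runs 5′ to 3′ on the gene's strand, from 250 bases before to 50 bases after the most upstream start in RefSeq's table for GRCm38.p6. Capitals mark GGGCGG or CCGCCC (the GC box, read by Sp1-type factors, on either strand) and TGGGAA or TTCCCA (the core of the site of RBPJ, the DNA-binding partner of Notch, on either strand). No base fell in both motifs. The windows lie at chr6:125494711-125495010 for Cd9, chr2:93462901-93463200 for Cd82 and chr6:128143529-128143828 for Tspan9, all on the minus strand.
Cd9: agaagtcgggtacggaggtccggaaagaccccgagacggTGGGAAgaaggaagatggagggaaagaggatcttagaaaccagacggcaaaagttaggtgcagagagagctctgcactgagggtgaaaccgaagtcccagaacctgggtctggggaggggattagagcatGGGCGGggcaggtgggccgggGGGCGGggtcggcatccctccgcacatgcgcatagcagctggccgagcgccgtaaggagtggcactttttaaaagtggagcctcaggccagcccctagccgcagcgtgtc
Cd82: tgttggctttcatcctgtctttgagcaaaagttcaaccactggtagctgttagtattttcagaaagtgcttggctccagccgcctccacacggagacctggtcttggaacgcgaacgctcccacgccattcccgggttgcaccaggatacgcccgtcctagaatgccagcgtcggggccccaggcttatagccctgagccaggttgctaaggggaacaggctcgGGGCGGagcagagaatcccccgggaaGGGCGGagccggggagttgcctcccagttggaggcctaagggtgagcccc
Tspan9: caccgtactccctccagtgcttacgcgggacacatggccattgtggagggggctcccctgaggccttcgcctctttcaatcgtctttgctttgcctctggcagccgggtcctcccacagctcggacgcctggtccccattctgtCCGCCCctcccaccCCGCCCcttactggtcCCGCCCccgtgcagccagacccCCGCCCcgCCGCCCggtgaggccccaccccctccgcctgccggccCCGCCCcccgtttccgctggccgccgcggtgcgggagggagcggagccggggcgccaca

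The GC box occurred 2 times in the Cd9 window, 2 times in that of Cd82 and 6 times in that of Tspan9. Over the most upstream window of each of 27025 genes, 35.9% held at least 1 GC box and 25.5% at least 1 RBPJ core. The RBPJ core occurred 1 time in the Cd9 window and 0 times in the windows of Cd82 and Tspan9. It also occurred in the windows of Cd63, Cd81, Tspan3 and Tspan4, whose probes stayed within 2-fold. All 3 windows were rich in G and C, 61.3% for Cd9, 60.7% for Cd82 and 73.3% for Tspan9, against a median of 52.7% over all windows. Members within 2-fold were also above that median, with 65.7% for Cd81, 64.3% for Cd151 and 68.7% for Tspan4, and their windows held 3, 2 and 3 GC boxes. These matches describe the letters alone. RefSeq's table lists 1 start for Cd9 and 4 each for Cd82 and Tspan9, so other promoters of the last pair are not shown.

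Cd9 encodes the tetraspanin that binds the immunoglobulin-type proteins EWI-2 and EWI-F and several integrins. Its probe read 9.3 in OP9-DL cells, 963.3 in OP9-GFP cells and 1722.4 in OP9 cells. The OP9-DL array was low and the other two were high, and OP9-GFP was 1.79-fold below OP9. On the log2 scale OP9-DL lay at -6.69 against OP9-GFP and at -7.53 against OP9, and among the 15581 compared probes Cd9 ranked 1 from the bottom in both comparisons. These comparisons share the OP9-DL reading of 9.3, so an error in it would enter both ranks. The reading of 9.3 is above the brightness limit but below the array's median of 20, so the size of the fold rests on a background correction that was not given in the sources used here. The array reads the RNA of a whole culture, so fewer cells with Cd9 and less Cd9 RNA per cell cannot be told apart.

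**Figure D1:**
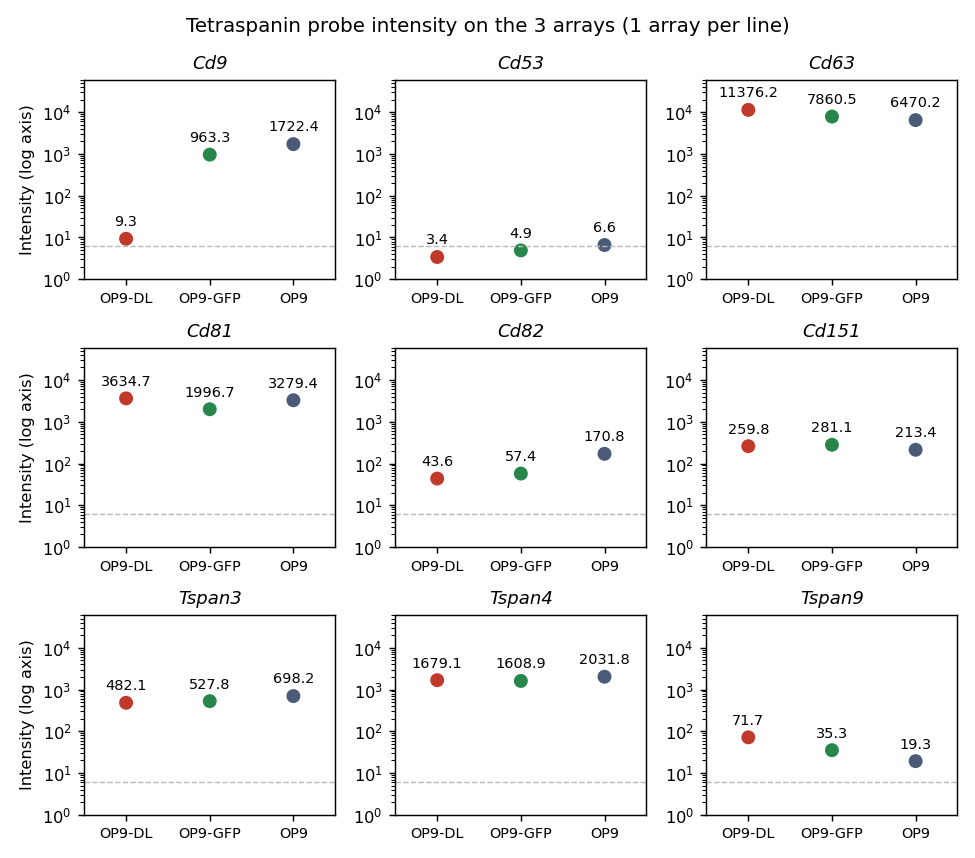
Intensity (log axis) of the 9 tetraspanin probes on the OP9-DL, OP9-GFP and OP9 arrays, 1 point per array with its value; the dashed line is the brightness limit of 6.13. Cd9 reads 9.3 on the OP9-DL array against 963.3 and 1722.4 on the other arrays, while Cd63, Cd81, Cd151, Tspan3 and Tspan4 stay within 2-fold.

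How far a single probe can be trusted may be read from genes with more than 1 probe. Over 125 genes with 2 compared probes, the log2 differences between OP9-DL and OP9-GFP from both probes lay a median of 0.32 apart, with a 90th percentile of 1.00 and a maximum of 4.58. The corresponding values for OP9-DL against OP9 were 0.36, 1.36 and 4.28, and for OP9-GFP against OP9 0.42, 1.05 and 3.46. These gaps give a scale for a single probe and hold no spread between cultures. They cannot weigh Cd9, which was selected on its intensity and rests on 1 probe.

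Tspan9, a tetraspanin of platelets and other cells, ran the other way. It read 71.7 in OP9-DL cells, 35.3 in OP9-GFP cells and 19.3 in OP9 cells. OP9-DL was thus the high array, 2.03-fold above OP9-GFP and 3.72-fold above OP9, and OP9-GFP lay between. The first of these lies just inside the 2-fold threshold, and its log2 value of 1.02 is close to the 90th percentile of the gaps between probes. With a constant of 1.6 added to every intensity before log2 it was 0.99, under 2-fold. Both comparisons of OP9-DL share its array, so a reading of Tspan9 there that is off would enter both. Just outside the threshold stood Cd81, at 1.82-fold.

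Cd82, also known as KAI1 and first described as a suppressor of metastasis, set the parental line apart. Its probe read 43.6 in OP9-DL cells, 57.4 in OP9-GFP cells and 170.8 in OP9 cells. OP9 was the high array, and both lines with GFP were low. The fold was 3.92 lower for OP9-DL and 2.98 lower for OP9-GFP, each against OP9, while OP9-DL was 1.32-fold below OP9-GFP. These comparisons share the OP9 array, so a reading of that array that is off would enter both.

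**Figure D2:**
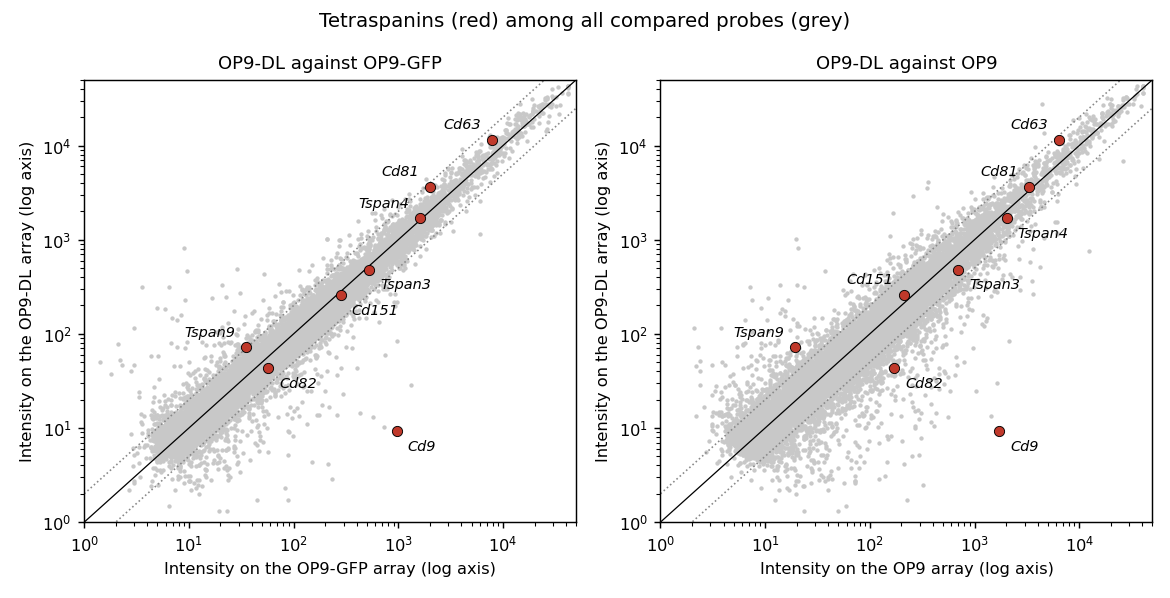
Intensity of 15581 compared probes (grey) on the OP9-DL array against the OP9-GFP array (left) and the OP9 array (right), both axes log; the solid line is equality, dotted lines are 2-fold, and 8 tetraspanins are in red. Cd9 lies far below the line in both panels, and Tspan9 lies above it.

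The remaining members stayed within 2-fold in the 3 comparisons. Cd81, a widely expressed tetraspanin of the plasma membrane, read 3634.7 in OP9-DL cells, 1996.7 in OP9-GFP cells and 3279.4 in OP9 cells. Here it was the OP9-GFP array that was low, and OP9-DL and OP9 were close, 1.11-fold apart. Cd63, a tetraspanin of late endosomes, lysosomes and released vesicles, read 11376.2 in OP9-DL, 7860.5 in OP9-GFP and 6470.2 in OP9 cells. OP9-DL was the high array, 1.76-fold above OP9 and 1.45-fold above OP9-GFP.

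Cd151, which binds laminin-binding integrins, read 259.8 in OP9-DL cells, 281.1 in OP9-GFP cells and 213.4 in OP9 cells. Tspan3 read 482.1 in OP9-DL, 527.8 in OP9-GFP and 698.2 in OP9 cells, and Tspan4, known from the migrasomes that moving cells leave behind, read 1679.1 in OP9-DL, 1608.9 in OP9-GFP and 2031.8 in OP9 cells. OP9-DL and OP9-GFP lay from 1.04-fold (Tspan4) to 1.09-fold (Tspan3) apart for these genes, and OP9 was low for Cd151 and high for Tspan3 and Tspan4. Cd53, a tetraspanin of white blood cells, read 3.4 in OP9-DL, 4.9 in OP9-GFP and 6.6 in OP9 cells and fell below the brightness limit, so no fold is given. The order of its readings is that of Cd9, but at this intensity it is not a difference that can be read.

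Counted over the 8 members compared, 1 was higher and 1 lower in OP9-DL than in OP9-GFP cells and 6 lay between. Over all compared probes 5.03% passed 2-fold in that comparison, 2.31% higher and 2.72% lower. Against OP9, OP9-DL had 1 member higher and 2 lower, with 11.2% of all probes past 2-fold (4.31% higher and 6.91% lower). OP9-GFP against OP9 had 0 higher and 1 lower, Cd82, with 11.6% of all probes past 2-fold (4.86% higher and 6.75% lower). The members' median log2 differences were -0.03, -0.06 and -0.37 in these comparisons, and those of all compared probes were -0.01, 0.02 and 0.02. With Cd9 chosen for its intensity, the counts say nothing about the family as a group.

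**Figure D3:**
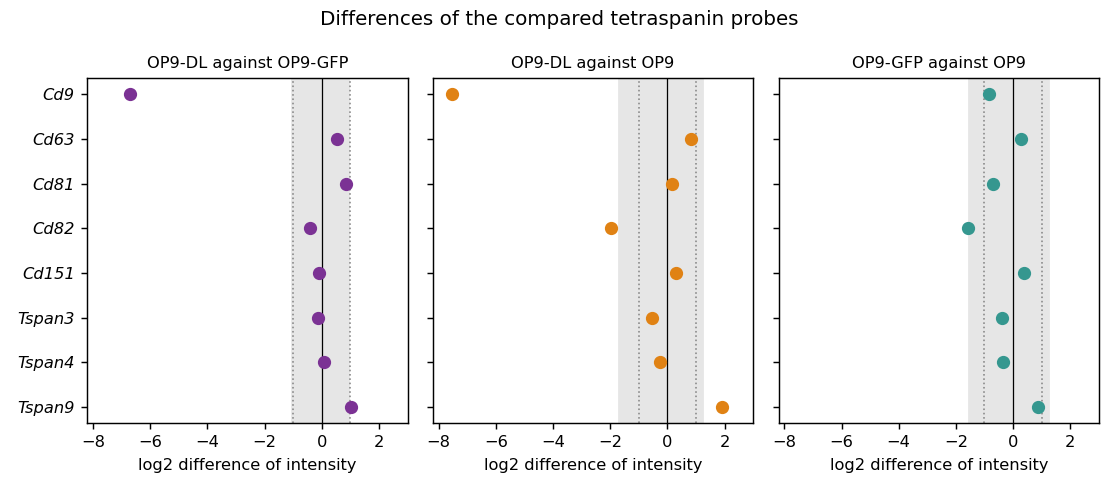
The log2 difference of intensity of 8 compared tetraspanins in each comparison; the grey band holds the middle 95% of all compared probes and dotted lines mark 2-fold. Cd9 lies at -6.69 and -7.53 in the comparisons of OP9-DL, far outside the band, and at -0.84 in OP9-GFP against OP9, inside it.

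Standing 2-fold or more away from both other lines is a stricter criterion. Cd9 was below both on the OP9-DL array, as were 1.46% of compared probes, and Tspan9 was above both, as were 0.969%. Cd82 was above both on the OP9 array, as were 3.98% of compared probes. Each case turns on the reading of a single array, which enters both of its comparisons.

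The 3 neighbours of Cd9 that could be read stayed within 2-fold between OP9-DL and OP9-GFP. Only 5.03% of all compared probes passed 2-fold there, so this count is not a result about the region. In the gene order of GRCm38.p6 the nearest measured neighbours of Cd9 on chromosome 6 were Plekhg6, Tnfrsf1a and Scnn1a on one side and Vwf, Ano2 and Kcna1 on the other, and 3 of these 6 were bright enough to be compared. Plekhg6, which encodes a guanine nucleotide exchange factor and lies directly beside Cd9, read 38.2 in OP9-DL cells, 40.8 in OP9-GFP cells and 196.8 in OP9 cells. It was high on the OP9 array alone, 5.15-fold lower in OP9-DL and 4.82-fold lower in OP9-GFP than in OP9 cells, and 1.07-fold lower in OP9-DL than in OP9-GFP cells. Tnfrsf1a, a receptor of tumour necrosis factor, read 91.1 in OP9-DL, 100 in OP9-GFP and 160.4 in OP9 cells, and Kcna1, a potassium channel, read 59 in OP9-DL, 58.2 in OP9-GFP and 48 in OP9 cells. Scnn1a, Vwf and Ano2 were below the brightness limit and could not show such a difference.

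**Figure D4:**
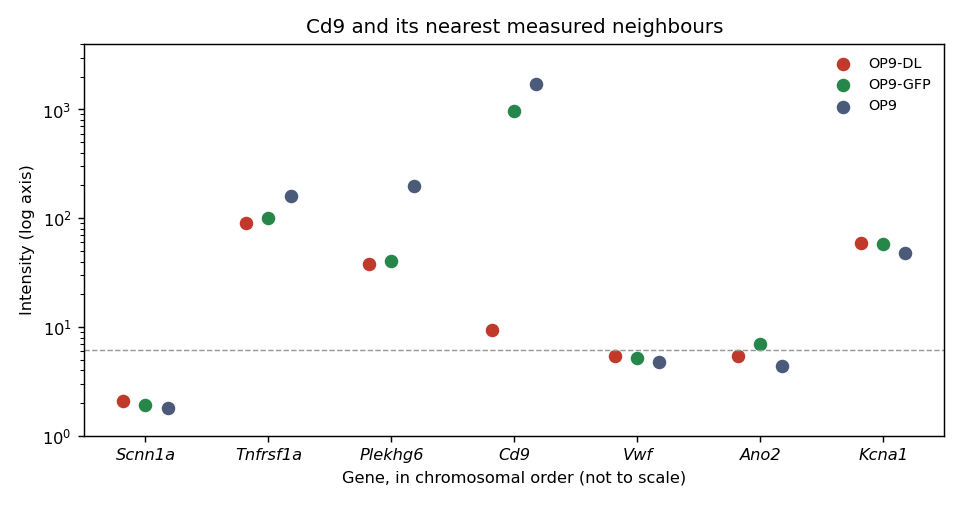
Intensity (log axis) of Cd9 and its 3 nearest measured neighbours on each side, in gene order and not to scale, on the OP9-DL (red), OP9-GFP (green) and OP9 (blue) arrays; the dashed line is the brightness limit. Plekhg6, Tnfrsf1a and Kcna1 differ by less than 2-fold between OP9-DL and OP9-GFP, Plekhg6 is high on the OP9 array, and the other 3 neighbours are too dim to show a drop.

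Several tetraspanin genes are neighbours of one another. Cd151 and Tspan4 lie on chromosome 7 with 1 gene, Polr2l, between them, and both stayed within 2-fold in every comparison made. Cd81 lies beside Tspan32, which has 2 probes. One read 15.4 in OP9-DL cells, 12 in OP9-GFP cells and 11.5 in OP9 cells, the other 9.9 in OP9-DL, 13.5 in OP9-GFP and 8 in OP9 cells, so the probes pointed in opposite directions between OP9-DL and OP9-GFP. Tspan9 lies beside Tspan11, which read 7.4 in OP9-DL, 12.5 in OP9-GFP and 7.2 in OP9 cells, all within 2-fold. Cd82 lies beside Tspan18, which was below the brightness limit.

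Of 21 further tetraspanins listed, 19 had a probe and 12 were bright enough to be compared, with 13 probes. Between OP9-DL and OP9-GFP 0 of these probes were higher and 1 lower, where 2.31% of all compared probes were higher and 2.72% lower. Their median log2 difference was -0.12, against -0.01 over all compared probes. Against OP9 neither OP9-DL nor OP9-GFP had a probe of this list past 2-fold, where 11.2% and 11.6% of all compared probes passed. The 1 lower between OP9-DL and OP9-GFP was Tspan12, a co-receptor for Norrin and Frizzled-4. It read 50.5 in OP9-DL cells, 121.3 in OP9-GFP cells and 76.3 in OP9 cells, so that OP9-DL was the low array and OP9-GFP the high one, with OP9-DL 2.40-fold below OP9-GFP.

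The TspanC8 subgroup escorts the protease ADAM10, which cleaves Notch receptors and their ligands, to the cell surface. None of its 6 genes passed 2-fold in any comparison. Over all compared probes 5.03% passed between OP9-DL and OP9-GFP. Against OP9, 11.2% passed in OP9-DL and 11.6% in OP9-GFP, so the count is not a result about the subgroup. Tspan5 read 199.3 in OP9-DL cells, 149.4 in OP9-GFP cells and 180.1 in OP9 cells, and Tspan14 read 61.5 in OP9-DL, 69.6 in OP9-GFP and 51.4 in OP9 cells. Tspan15 read 95.3 in OP9-DL, 154.4 in OP9-GFP and 109.6 in OP9 cells, high on the OP9-GFP array, and Tspan17 read 98.8 in OP9-DL, 172 in OP9-GFP and 176.5 in OP9 cells, low on the OP9-DL array by 1.74-fold against OP9-GFP. Tspan10 and Tspan33 were dim and close between the arrays, from 6.7 to 10.2. Adam10 itself read 205.9 in OP9-DL, 239.5 in OP9-GFP and 336.8 in OP9 cells.

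None of the 14 compared genes for tetraspanin partners passed 2-fold between OP9-DL and OP9-GFP. Over all compared probes 5.03% passed, so this count is not a result about the partners. The partners' median log2 difference was -0.18, against -0.01 over all compared probes. Igsf8, which encodes EWI-2, read 180.2 in OP9-DL cells, 207.2 in OP9-GFP cells and 153.6 in OP9 cells, and Ptgfrn, which encodes EWI-F, read 9.8 in OP9-DL, 7.6 in OP9-GFP and 7.4 in OP9 cells. Igsf8 was 1.15-fold lower and Ptgfrn 1.29-fold higher in OP9-DL than in OP9-GFP cells. Between these lines Cd9 differed by 104-fold, a size that rests on its dim OP9-DL reading of 9.3. Itgb1, the beta-1 integrin chain, read 471.9 in OP9-DL, 615.6 in OP9-GFP and 530.8 in OP9 cells. Hbegf, a growth factor whose membrane form associates with CD9, read 212.7 in OP9-DL cells, 228 in OP9-GFP cells and 64 in OP9 cells. Both GFP-carrying lines were high, OP9-DL by 3.32-fold and OP9-GFP by 3.56-fold. Ifitm3, an interferon-inducible membrane protein, read 1174.3 in OP9-DL, 1311.2 in OP9-GFP and 6071.5 in OP9 cells and was 5.17-fold lower in OP9-DL than in OP9 cells. Against OP9, each GFP-carrying line had 1 partner higher and 1 lower, which were Hbegf and Ifitm3; 11.2% of all compared probes passed 2-fold in OP9-DL and 11.6% in OP9-GFP, so these counts are not a result about the partners.

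All 26 genes for vesicle cargo and release were compared, and 1 passed 2-fold between OP9-DL and OP9-GFP, with a median log2 difference of -0.04; over all compared probes 5.03% passed. Smpd3, a neutral sphingomyelinase that acts in vesicle budding, read 28.7 in OP9-DL cells, 9.8 in OP9-GFP cells and 2.4 in OP9 cells. It was 2.93-fold higher in OP9-DL than in OP9-GFP, and its OP9 reading was below the brightness limit. Pdcd6ip (ALIX), Tsg101 and Sdcbp (syntenin), which sort cargo into vesicles, lay between 1.02-fold (Sdcbp) and 1.12-fold (Pdcd6ip) apart in OP9-DL and OP9-GFP cells. Against OP9, OP9-DL had 1 gene higher and 2 lower, and OP9-GFP had 1 higher and 4 lower, where 11.2% and 11.6% of all compared probes passed 2-fold. The higher gene was Smpd3 in both lines, and its folds against OP9 rest on the dim OP9 reading of 2.4. Among the lower ones were Sdc1, a syndecan (110 in OP9-DL, 106.3 in OP9-GFP and 352.6 in OP9 cells), and Flot2, a flotillin (50.5 in OP9-DL, 54.5 in OP9-GFP and 117 in OP9 cells). The other two were Flot1 (128 in OP9-DL, 83.4 in OP9-GFP and 172.4 in OP9 cells) and Sdc3 (5.9 in OP9-DL, 4.6 in OP9-GFP and 9.5 in OP9 cells), in OP9-GFP. Sdc3 was below the brightness limit in both GFP-carrying lines, so its fold is not firm. The enzymes that attach palmitate to tetraspanins or remove it had 4 genes compared and none past 2-fold in any comparison. Over all compared probes 5.03%, 11.2% and 11.6% passed in the 3 comparisons, so this count is not a result about the enzymes. Zdhhc2, the enzyme known for CD9 and CD151, was below the brightness limit (2.2 in OP9-DL, 6.6 in OP9-GFP and 1.3 in OP9 cells).

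**Figure D5:**
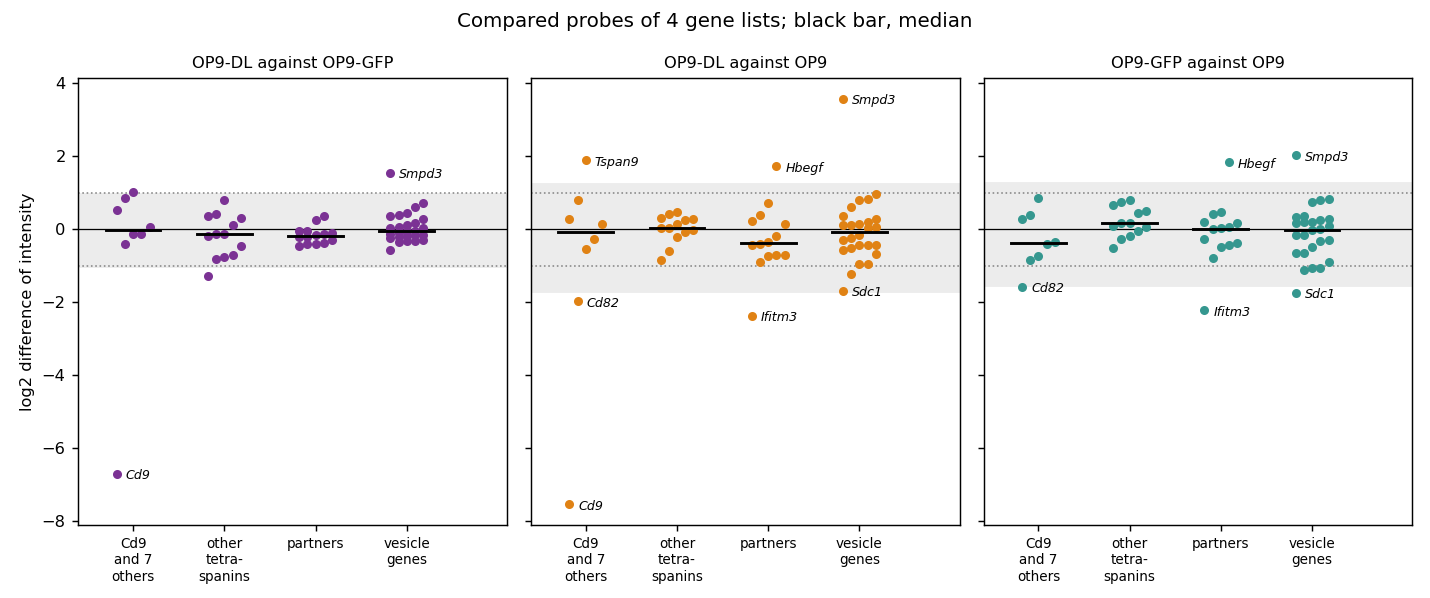
The log2 difference of each compared probe of the 8 members, the other tetraspanins, the partners and the vesicle genes in 3 comparisons; black bars are medians, the grey band holds the middle 95% of all compared probes, and dotted lines mark 2-fold. Cd9 lies below every other probe shown in the comparisons of OP9-DL.

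The probes with the pattern closest to Cd9 were sought by the Euclidean distance between log2 values over the 3 arrays, each probe centred on its own mean, among 11495 named probes. Akip1 was nearest at 0.71, followed by Adgre5 (the adhesion receptor CD97) at 1.31, then Eva1b, Pxdc1 at 1.61 and Pxylp1 at 1.76. The OP9-DL readings of Akip1 (1.7), Adgre5 (4.1), Pxdc1 (2.9) and Pxylp1 (4.3) were below the brightness limit, so these probes were compared through their other arrays and their exact distances and order are uncertain. Akip1 was also lower in OP9-GFP than in OP9, by 2.56-fold, where Cd9 was 1.79-fold lower. Adgre5, Eva1b and Pxylp1 had nearly equal readings on the OP9-GFP and OP9 arrays, 1.00-fold to 1.02-fold apart, and Pxdc1 was 1.90-fold higher in OP9-GFP. At a threshold of 16-fold, chosen after the values were seen, 9 of 15581 probes were lower in OP9-DL cells than in either other line, Cd9 among them. Of these 9, 6 had an OP9-DL reading below the brightness limit, so they give a direction but no firm fold.

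Markers of blood cells were set beside Cd9 and Cd53 because both are also made by such cells. Of 16 markers, 8 were bright enough to be compared. The summed intensity of all 16 was 1101.6 in OP9-DL cells, 176.5 in OP9-GFP cells and 202.6 in OP9 cells. Between OP9-DL and OP9-GFP 2 of the 8 were higher and 0 lower, where 2.31% of all compared probes were higher and 2.72% lower. Against OP9, OP9-DL had 2 higher and 1 lower, where 4.31% of all compared probes were higher and 6.91% lower. The lower marker was Cd14, which read 23 in OP9-DL, 34 in OP9-GFP and 55.6 in OP9 cells. The 2 higher were Tpsab1 and Cd48. Tpsab1, a mast cell tryptase, read 818.9 in OP9-DL, 9 in OP9-GFP and 20.6 in OP9 cells, and Cd48 read 114.4 in OP9-DL, 3 in OP9-GFP and 2.1 in OP9 cells. The OP9-GFP and OP9 readings of Cd48 were below the brightness limit, so it was compared only through the line where it was high. The count of higher markers is therefore not a result about blood cells. Other mast cell genes of the list did not share this pattern. Cpa3 read 6.7 in OP9-DL, 8.1 in OP9-GFP and 4.9 in OP9 cells, and Mcpt4 read 19.8 in OP9-DL, 17.8 in OP9-GFP and 19.1 in OP9 cells. Ms4a2 was below the brightness limit and Fcer1a was blank on the OP9-GFP array. The 14 markers other than Tpsab1 and Cd48, set apart after their values were seen, summed to 168.3 in OP9-DL, 164.5 in OP9-GFP and 179.9 in OP9 cells. Ptprc (CD45) read 2.8 in OP9-DL, 2.5 in OP9-GFP and 2.1 in OP9 cells, Kit was blank on the OP9-DL and OP9-GFP arrays, and Cd37, another tetraspanin of white blood cells, read 1.4 on the OP9-DL array and 2.5 on the OP9 array and was blank on the OP9-GFP array. Tpsab1 and Cd48 were high on the array where Cd9 was low, and their part in the Cd9 result was not tested.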

How the data were processed

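Per the labels' protocols, amino allyl RNA was made from total RNA, labelled with Cy5 and hybridised by the maker's protocol, with 1 array for each of 3 lines. The authors deposited linear probe intensity, scaled, as the values show, to a median of 20 on each array. Scanner, background correction and the rule for blank cells were not given in the sources used here. Between 6.32% and 6.62% of probes were blank on an array.

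The intensities were used as deposited, and log2 was taken with no constant. Of 20775 probes without a blank on any array, those whose mean log2 value was at or above the 25th percentile were compared. Symbols came from the platform's table (16631 probes with 1 symbol, 6842 without) and were updated through RefSeq's GRCm38.p6 table: 12622 were current, 3947 were renamed and 62 were kept. That table also gave gene order among protein-coding genes, and of a neighbour's probes the brightest was used. All 10 members matched an entry of the RefSeq promoter table for GRCm38.p6.

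Members and lists were chosen with earlier results of these data known. Named genes were the members, the listed tetraspanins, partners and vesicle genes past 2-fold with the TspanC8 genes, the 5 probes nearest to Cd9 in pattern, its 3 measured neighbours on each side, Dll1 and leading markers. Other genes, such as Igsf8, Ptgfrn, Itgb1, Pdcd6ip, Tsg101, Sdcbp, Zdhhc2 and neighbours of other members, were added after their values were seen. The counting was tested on simulated arrays with known differences. With 1 array per line there is no test, and the number of arrays limits the precision. Python 3.11.15, numpy 2.4.6, pandas 2.3.3, statsmodels 0.14.6 (lowess, span 0.3) and matplotlib 3.10.9 were used.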

Additional observations from a re-analysis of the deposited data

How the results depend on the processing

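No paired analysis was possible because each line has 1 array. Brightness limits and filled blanks cannot move the difference of a member that has a value on each array. The 3 alternatives that can, both scalings and the added constant, gave 72 differences of the 8 compared members, and 71 kept their side of 2-fold. The exception was Tspan9 in OP9-DL against OP9-GFP, at 0.99 with a constant of 1.6 added before log2, which left 0 members higher there. The Cd9 difference ran from -6.70 to -6.47 against OP9-GFP and from -7.58 to -7.31 against OP9. The fold threshold decides the small counts. For OP9-DL against OP9-GFP, members higher were 2 at 1.5-fold and 0 at 3-fold, and other tetraspanins were 1 higher and 4 lower at 1.5-fold and 0 lower at 3-fold. For OP9-DL against OP9, 2 members were higher and 2 other tetraspanins lower at 1.5-fold. For OP9-GFP against OP9, 1 member was higher and 3 lower at 1.5-fold, 0 were lower at 3-fold, and 3 other tetraspanins were higher at 1.5-fold. With no limit on dim probes, or with blanks filled by the lowest intensity, 1 other tetraspanin was lower against OP9 in OP9-DL and 1 in OP9-GFP. Over all probes, OP9-DL against OP9-GFP had 688 higher and 655 lower with no brightness limit, 214 and 243 with a limit at the 50th percentile, 1206 and 1313 at 1.5-fold, and 110 and 165 at 3-fold. OP9-DL against OP9 had 1051 higher with no limit and 434 with the limit at the 50th percentile, 2058 higher and 2435 lower at 1.5-fold, and 216 and 440 at 3-fold. OP9-GFP against OP9 had 2173 higher and 2401 lower at 1.5-fold, and 189 and 368 at 3-fold. Probe brightness limits the dim members: Cd53 and the OP9-DL reading of Cd9 lie nearest the limit.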
